A study of Mus musculus with 3 samples.

Results

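Opposite-strand transcripts, most of them non-coding, are named after the gene that lies on the other DNA strand at the same place. Here they were taken as rows of the deposited table whose symbol ends in os, os1, os2 or os3 and whose stem is also a symbol of the table. The rule found 235 antisense rows with 215 sense partners among 22843 rows. Of the partners, 198 had 1 antisense row, 14 had 2, and 3 (Arhgap27, Grip1 and Ube4b) had 3. In the GENCODE annotation of GRCm38, all 235 pairs lay on opposite strands of the same chromosome, and 232 lay within 10 kb of each other.

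The series asked what Gm4665, a mouse long non-coding RNA, does in spermatogenesis. Male ICR mice received AAV9 vectors by microinjection into the testis, at an age given as postnatal day 21, with the control vector in one testis and a vector targeting Gm4665 in the contralateral testis. Whether both testes of the same animals were used is not given by the labels. Each vector also carried a red fluorescent protein (RFP). After somatic cells had been depleted, RFP-positive germ cells from 3 mice per condition were sorted and their RNA was read from the 3′ end in droplets. There was 1 library per condition, the control hairpin (shCtrl), shRNA1 and shRNA2, so no difference between conditions has a replicate check, and both hairpins are compared with the same control. Mice of a condition were pooled, no allele was changed, and every group carried AAV9, RFP and a hairpin. The deposited columns were assigned to the hairpins from the last digit of their names only, and if that reading is wrong the values of shRNA1 and shRNA2 below are exchanged.

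Natural antisense transcripts can arise from a promoter shared with a neighbouring gene and transcribed away from it, or from a start site inside or beyond a gene and transcribed through it. Some are known to act on the gene they cross, by interfering with its transcription, by changing its chromatin or by pairing with its RNA, while many have no known function. Mammalian testis is known for wide transcription of non-coding RNA, above all in meiotic and post-meiotic germ cells, whose chromatin is unusually open.

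The 8 stretches of DNA below come from pairs transcribed away from each other, without overlap of the genes, from start sites at most 250 bases apart. Both rows were detected above the filter described further on. Pairs whose genes overlap at their 5′ ends were left out. The stretches were picked after the levels had been seen, and a ninth pair, Bloc1s6os with Bloc1s6, met the same limits. Each runs 5′ to 3′ on the strand of the sense gene, from the base after the antisense start site to the base before the sense start site, taken from RefSeq promoters of GRCm38.p6. Capitals mark matches, on either strand, to CCAAT or to GGGCGG, the GC box.

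Ccpg1os and Ccpg1, chr9:72985383-72985428, plus strand: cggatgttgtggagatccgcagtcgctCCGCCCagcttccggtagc
Med9os and Med9, chr11:59948143-59948205, plus strand: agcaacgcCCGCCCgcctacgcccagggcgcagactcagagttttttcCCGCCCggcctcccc
Arl4aos and Arl4a, chr12:40038026-40038098, minus strand: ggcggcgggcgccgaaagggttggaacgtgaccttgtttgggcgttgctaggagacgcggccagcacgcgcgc
Cep83os and Cep83, chr10:94688577-94688653, plus strand: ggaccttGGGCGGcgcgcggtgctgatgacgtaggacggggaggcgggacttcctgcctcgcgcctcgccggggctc
Hmgb4os and Hmgb4, chr4:128260958-128261043, minus strand: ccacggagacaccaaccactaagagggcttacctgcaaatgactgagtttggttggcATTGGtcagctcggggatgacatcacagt
Etaa1os and Etaa1, chr11:17953876-17953969, minus strand: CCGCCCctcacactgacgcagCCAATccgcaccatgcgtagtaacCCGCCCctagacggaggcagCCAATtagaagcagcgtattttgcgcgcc
Saxo1os and Saxo1, chr4:86558329-86558445, minus strand: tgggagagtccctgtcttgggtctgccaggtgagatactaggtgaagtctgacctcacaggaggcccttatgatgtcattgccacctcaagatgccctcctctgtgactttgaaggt
Rbm46os and Rbm46, chr3:82876484-82876704, minus strand: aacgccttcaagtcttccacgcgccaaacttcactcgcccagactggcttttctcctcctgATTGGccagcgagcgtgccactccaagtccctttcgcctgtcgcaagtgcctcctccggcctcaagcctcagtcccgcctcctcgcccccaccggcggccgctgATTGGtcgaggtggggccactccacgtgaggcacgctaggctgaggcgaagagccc

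The 46 bases between Ccpg1os and Ccpg1 hold 1 GC box, the 63 bases of Med9 hold 2, and the 94 bases of Etaa1 hold 2 GC boxes and 2 CCAAT matches. Among all 32851 RefSeq promoters, a window of the length of the Ccpg1 stretch placed alike held a GC box in 14.8%, and a window of the length of the Etaa1 stretch held a GC box in 24.0%. Windows of the lengths of the Hmgb4, Etaa1 and Rbm46 stretches, which hold CCAAT matches, held one in 16.6%, 18% and 31.2%. None of the 8 stretches held TGACGTCA, GGCAGTT or TATAAA. At the lengths of the Ccpg1 and Etaa1 stretches, 0.539% and 1.12% of windows held TGACGTCA. For GGCAGTT these shares were 0.560% and 1.35%, and for TATAAA 3.31% and 5.31%. The absence of motifs this rare does not set the 8 stretches apart from other promoters. The stretch between Saxo1os and Saxo1 was the one with no CpG dinucleotide at 53.0% G and C, while the other 7 held 2 to 18. The motifs are matches of letters only, and their use by any factor was not measured.

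The pairs were arranged in different ways. In 97 the antisense gene lay inside the sense gene, in 68 the genes overlapped at their 5′ ends, in 32 they diverged without overlap, in 20 they overlapped at their 3′ ends, in 12 they converged without overlap, and in 6 the sense gene lay inside the antisense gene. Exons of 133 pairs shared bases and those of 102 did not. The sources used here do not say whether reads were counted by strand. In 87 pairs the last 500 bases of the antisense gene, where a 3′ library is read, reached into sense exons, and for these the reads of the members cannot be told apart if strand was ignored. The same limit holds for 58 pairs, which may be partly the same ones, in which the last 500 bases of the sense gene reached into antisense exons. The annotation calls 212 of the antisense rows antisense RNA, 10 lincRNA and 9 protein-coding, the last including Ccpg1os, Chd3os, Fancd2os and Wdr83os.

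The libraries held 1418 (shCtrl), 1732 (shRNA1) and 1873 (shRNA2) cells and 40405313, 38330044 and 44640351 unique molecular identifiers (UMIs, each standing for 1 captured RNA molecule). Gm4665 itself stood at 311 CPM (UMIs per 1000000 UMIs) in shCtrl, 52.8 in shRNA1 and 79.1 in shRNA2. Cells were clustered and called like spermatogonia (26, 90 and 111 cells, in the order shCtrl, shRNA1, shRNA2, which is kept below), leptotene to zygotene spermatocytes (83, 69 and 214), pachytene to diplotene spermatocytes (84, 200 and 223), round spermatids (401, 417 and 402), and elongating and condensing spermatids (610, 638 and 467) from markers. Immune-like cells, called non-germ here, made up 1.48%, 5.54% and 9.77%, and cells with Sertoli and spermatid RNA and those of uncertain class were kept apart. The libraries shared 5 to 7 cell barcodes pairwise. A fewer-cells and a less-RNA-per-cell effect cannot be told apart in values over all cells, and the share of each class differed between libraries. All intervals below are exact Poisson 95% intervals and cover counting error only, not differences between animals.

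Antisense rows took 0.326%, 0.312% and 0.297% of all UMIs, against 1.17%, 1.08% and 1.04% for their sense partners. Most were rare. In shCtrl 34 of the 235 had no UMI, over all cells 61 had fewer than 10, and 147 had at least 30. The counts ran from 1 to 44933 UMIs, and the 12 rows of most UMIs held 60.4% of all antisense UMIs. A row was described by class if its mean over the libraries reached 10 CPM with 30 UMIs in at least 1 germ class; 68 antisense rows, 134 sense partners and 11100 of all rows did.

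The summed antisense level was lowest in spermatogonia and highest in round spermatids. It was 1425, 1510.3 and 1451 CPM in spermatogonia, 2221, 2148 and 2161 in leptotene to zygotene cells, and 2748, 2955 and 2889 in pachytene to diplotene cells. It reached 3734, 3667 and 3912 CPM in round spermatids and stood at 3408, 3306 and 3319.8 in elongating spermatids. The libraries gave the same order of classes, and the classes did not overlap. In non-germ cells the sum was 849, 1230.2 and 1024 CPM. How much of this was free RNA of germ cells taken up in the droplets was not tested. Sense partners summed to between 7987 and 8245 CPM in spermatogonia and to between 12657 and 13849 CPM in round spermatids.

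By row, 26 of the 68 antisense rows (38.2%) were highest in round spermatids and 14 (20.6%) in elongating spermatids, together 58.8%. Of the sense partners 29.1% and of all rows past the filter 25.3% were highest in these 2 classes. Only 8 antisense rows (11.8%) were highest in spermatogonia, against 32.8% of sense partners and 38.0% of all rows. The shares for pachytene to diplotene cells were alike, at 23.5%, 23.1% and 22.8%. The same class led in each of the 3 libraries for 62 of the 68 antisense rows.

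**Figure D1:**
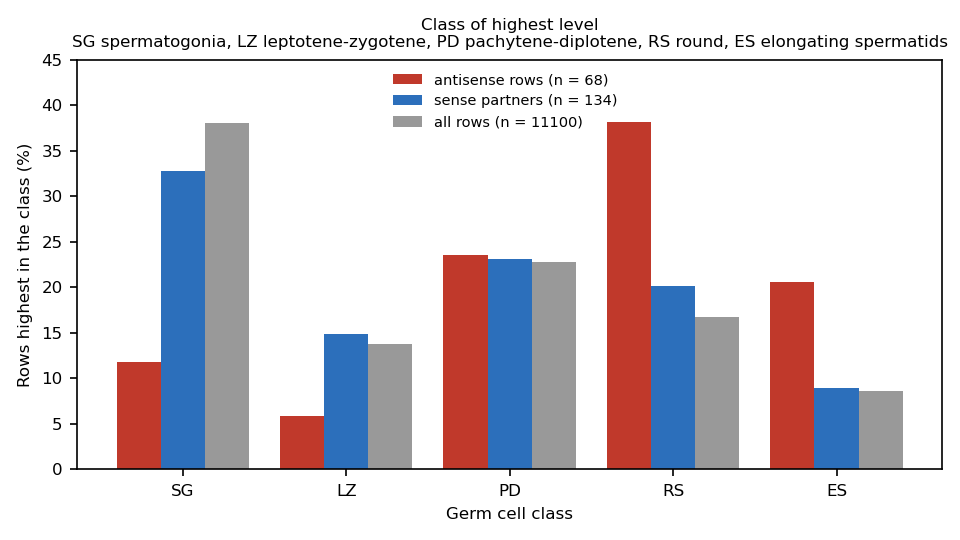
Percentage of rows (vertical axis) whose mean level over the 3 libraries was highest in each germ cell class (horizontal axis), for antisense rows, sense partners and all rows past the filter. The antisense bars are tallest in round spermatids (38.2%) and exceed the other bars in elongating spermatids (20.6%), and they are shorter than the others in spermatogonia (11.8%).

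In 51 pairs both members passed the filter. Of these, 16 (31.4%) had antisense and sense highest in the same class and 35 in different classes. In 17 pairs the antisense row passed and the sense row did not, in 93 pairs the reverse held, and in 74 pairs neither passed. In 55 pairs the antisense row had more UMIs than its partner in all 3 libraries, 40 of them with the antisense row past the filter. UMIs count 3′ ends and so are not scaled to transcript length, but a gene whose polyadenylation site is missed by the annotation would be undercounted.

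The likeness of the members' stage profiles was described by Pearson's r between log2(CPM + 1) of antisense and sense over 15 values, 5 classes in 3 libraries, which share cells and depth and are not independent. The median r of the 51 pairs was 0.41; it was above 0.5 in 21 pairs and below -0.5 in 10. Pairs with start sites within 1 kb had a median of 0.63 (17 pairs) and those farther apart 0.20 (34 pairs). The share of pairs with the same highest class did not differ in that way, at 29.4% (5 pairs) and 32.4% (11 pairs). By arrangement, the 10 divergent pairs without overlap had a median r of 0.29, and 2 of them shared their highest class. The 10 pairs overlapping at their 5′ ends had a median of 0.55, and 4 of them did. Pairs without shared exon bases had a median of 0.50 (23 pairs) and those with shared exon bases 0.20 (28 pairs). The 8 divergent stretches printed above showed values of both signs. Their r was 0.88 for Cep83 and Hmgb4, 0.84 for Arl4a, 0.74 for Saxo1 and 0.67 for Med9. It was -0.10 for Etaa1, -0.36 for Rbm46 and -0.83 for Ccpg1. The ninth pair, Bloc1s6os with Bloc1s6, had an r of -0.50.

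**Figure D2:**
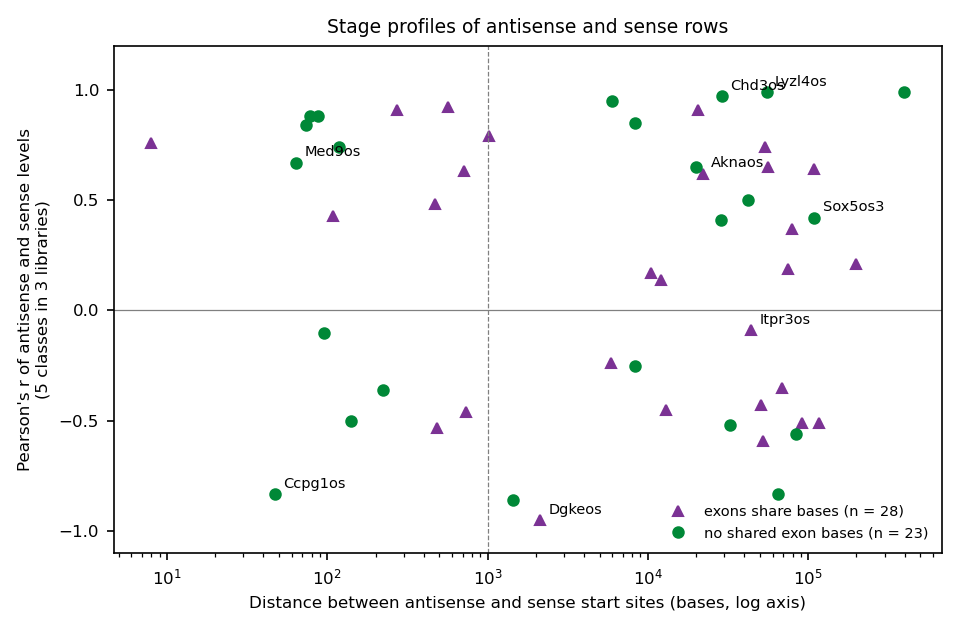
Pearson's r between antisense and sense levels over 5 classes in 3 libraries (vertical axis) against the distance between the start sites in bases (log axis), 1 point per pair with both members past the filter; triangles mark pairs whose exons share bases, and the dashed line marks 1 kb. Values from -0.95 (Dgkeos) to 0.99 (Lyzl4os) occur, and both signs are found on each side of the line.

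The 12 antisense rows with the highest level in any class are described with their partners, in groups by how the members were spread over the stages. These groups were made after the levels had been seen. In 7 pairs the antisense row was abundant where the sense row was low or near 0.

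**Figure D3:**
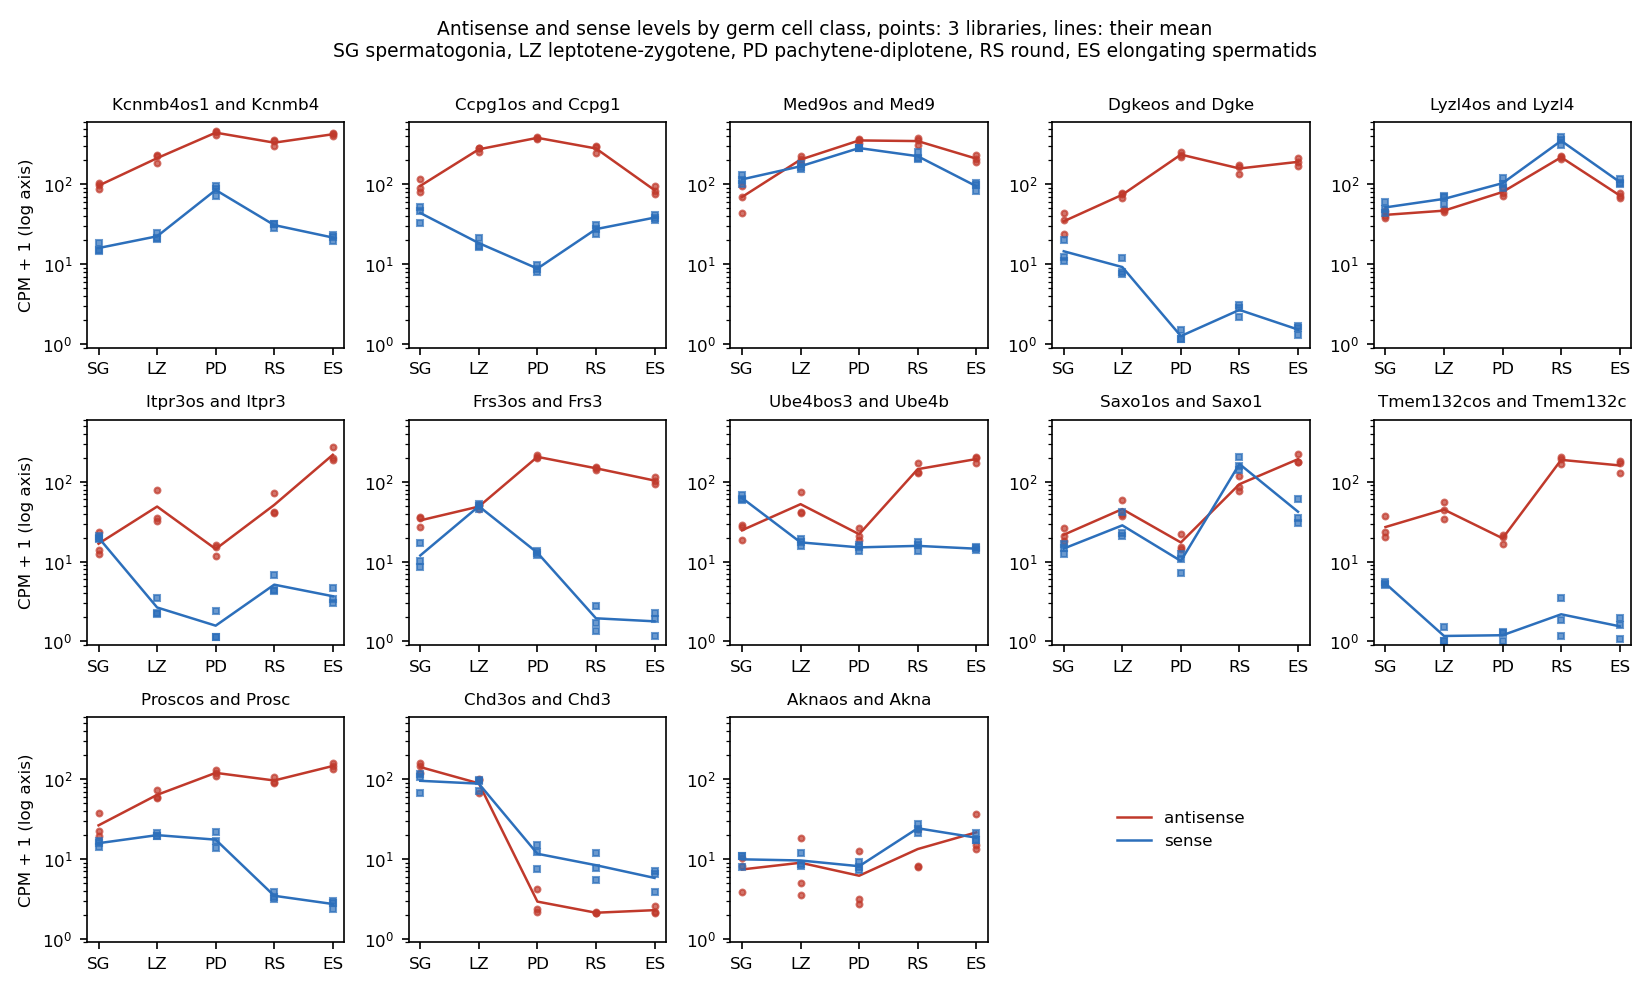
CPM + 1 (log axis) of antisense (red) and sense (blue) rows in 5 germ cell classes for the 12 antisense rows of highest level and Aknaos; points are the 3 libraries and lines their mean. The gap between red and blue lines is wider from meiosis on than in spermatogonia for Dgke, Itpr3 and Prosc. For Frs3 the lines meet in leptotene to zygotene cells and part from pachytene on. They lie apart in every class for Tmem132c, and run together for Lyzl4 and Chd3.

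Ccpg1os (chr9:72979722-72985382, minus strand, 2 exons) starts 47 bases from Ccpg1, which encodes a receptor for the autophagy of endoplasmic reticulum. Ccpg1os stood at 371, 393 and 383 CPM in pachytene to diplotene cells, at 253, 285 and 285 in leptotene to zygotene cells, and at 249, 303 and 291 in round spermatids. It was down to 74.1, 82.2 and 94.9 CPM in elongating spermatids, a range that overlapped its 38.9, 76.9 and 66.1 CPM in non-germ cells. Ccpg1 ran the other way, with 6.91, 8.85 and 7.67 CPM in pachytene to diplotene cells and 39.8, 35.1 and 37.1 CPM in elongating spermatids. The ranges of the libraries did not overlap between those classes for either member, and r was -0.83. Among pachytene to diplotene cells thinned to 10000 UMIs that held Ccpg1os, 10.4%, 8.28% and 5.26% also held a Ccpg1 UMI. The exons of this pair share no base, while those of Ccpg1 share 2170 bases with Pigb on the other strand.

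Dgkeos (chr11:89064729-89069098, plus strand) overlaps the 5′ end of Dgke, the gene of diacylglycerol kinase epsilon, by 100 exon bases. Dgkeos was higher in each later class up to pachytene, with 22.8, 42.9 and 34.7 CPM in spermatogonia, 77.6, 75.6 and 66.3 in leptotene to zygotene cells, and 217, 256 and 233 in pachytene to diplotene cells. Its levels in spermatogonia overlapped or lay under those of non-germ cells, at 38.9, 56.4 and 46.0 CPM. Dgke was at 11.4, 10.0 and 19.1 CPM in spermatogonia and at 0.477, 0.140 and 0.150 CPM in pachytene to diplotene cells. This pair had the lowest r of all, -0.95. Dgkeos made up 99.0%, 99.3% and 98.2% of the UMIs of the pair over all cells.

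Itpr3os (chr17:27099658-27101440, minus strand) lies inside Itpr3, which encodes the type 3 receptor for inositol trisphosphate, a calcium channel of the endoplasmic reticulum. Itpr3os was highest in elongating spermatids, at 269.7, 185 and 196 CPM, and low in pachytene to diplotene cells, at 15.01, 10.8 and 14.3 CPM. Itpr3 stood at 18.3, 20.03 and 18.5 CPM in spermatogonia and at 3.65, 1.99 and 2.40 CPM in elongating spermatids. Their exons share 233 bases.

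Tmem132cos (chr5:127256858-127281634, minus strand, 5 exons) lies inside Tmem132c, the gene of a transmembrane protein, without shared exon bases. It stood at 201, 168 and 193 CPM in round spermatids and at 182, 169 and 127 CPM in elongating spermatids, against 20.7, 15.6 and 19.4 CPM in pachytene to diplotene cells. Tmem132c did not pass the filter in any class; it had 4.57, 4.29 and 4.05 CPM in spermatogonia and 0.171, 0.844 and 2.54 CPM in round spermatids. After thinning, 80.4%, 74.5% and 78.0% of round spermatids held a Tmem132cos UMI, against 19.0%, 27.9% and 16.0% of non-germ cells.

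Frs3os (chr17:47699971-47701996, minus strand) lies inside Frs3, the gene of an adaptor of fibroblast growth factor receptors. Frs3os stood at 203, 197 and 213 CPM in pachytene to diplotene cells, 141, 146 and 153 in round spermatids and 49.6, 44.2 and 50 in leptotene to zygotene cells. Frs3 was highest 1 class earlier, at 44.2, 51.9 and 49.0 CPM in leptotene to zygotene cells, and was down to 0.343, 1.81 and 0.684 CPM in round spermatids. The exons share 509 bases, and 474 of the last 500 bases of Frs3os lie in Frs3 exons, so that without strand their reads could not be separated. The antisense row was highest in pachytene to diplotene cells and the sense row in leptotene to zygotene cells in all 3 libraries.

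Ube4bos3 (chr4:149334639-149335897, plus strand) is 1 of 3 antisense rows inside Ube4b, the gene of a ubiquitin chain elongation factor. It stood at 171, 131 and 127 CPM in round spermatids and 200.1, 204 and 171 CPM in elongating spermatids, after 25.3, 17.8 and 20 CPM in pachytene to diplotene cells. Ube4b was highest in spermatogonia, at 59.4, 58.0 and 67.6 CPM, and lay between 12.6 and 18 CPM in every other germ class. Their exons share 296 bases.

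Proscos (chr8:27042377-27043042, minus strand, 1 exon) overlaps the 5′ end of Prosc, which encodes a protein that binds pyridoxal phosphate, by 400 exon bases. Proscos stood at 132, 159 and 145 CPM in elongating spermatids and 110.1, 128 and 119 CPM in pachytene to diplotene cells. Prosc stood at 20.7, 12.8 and 15.9 CPM in pachytene to diplotene cells and at 1.34, 1.83 and 2.01 CPM in elongating spermatids. The sense row was lowest where the antisense row was highest, and r was -0.53.

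In the other 5 of the 12 pairs, both members were abundant and followed like or partly like courses. Lyzl4os (chr9:121586997-121614255, plus strand) lies inside Lyzl4, which encodes a lysozyme-like protein of sperm, without shared exon bases. Lyzl4os stood at 207, 229 and 217 CPM in round spermatids, 71.5, 89.9 and 76.6 in pachytene to diplotene cells and 66.9, 76.5 and 71.5 in elongating spermatids. Lyzl4 stood at 307, 387 and 359 CPM in round spermatids, 88.2, 120.2 and 99.4 in pachytene to diplotene cells and 99.7, 115 and 104 in elongating spermatids. In all 3 libraries both members were highest in round spermatids, r was 0.99, and Lyzl4os made up 40.6%, 39.2% and 39.9% of the UMIs of the pair. Among thinned round spermatids that held Lyzl4os, 94.2%, 97.2% and 96.4% also held Lyzl4, and among those without it 85.5%, 91.3% and 91.4% did. Non-germ cells had 36.1, 50.1 and 34.2 CPM of Lyzl4os, a range that overlapped the 36.5, 39.3 and 45.7 CPM in spermatogonia.

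Chd3os (chr11:69340461-69342641, plus strand) is annotated as protein-coding and converges on Chd3, the gene of a chromatin remodelling ATPase of the NuRD complex, 631 bases away. It was the 1 row of the 12 that was highest in spermatogonia, with 159.9, 145 and 118 CPM, and it stood at 65.4, 101 and 96.6 CPM in leptotene to zygotene cells. In pachytene to diplotene cells it was at 1.19, 3.23 and 1.35 CPM, and in round spermatids at 1.11, 1.08 and 1.17 CPM. Chd3 followed the same course, from 114, 104 and 65.3 CPM in spermatogonia to 6.43, 14.04 and 11.4 CPM in pachytene to diplotene cells, with r of 0.97.

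Med9os (chr11:59946889-59948142, minus strand) starts 64 bases from Med9, the gene of a Mediator subunit. Med9os stood at 329.8, 374 and 359.8 CPM in pachytene to diplotene cells and 309, 354 and 381 CPM in round spermatids, 2 classes whose ranges overlapped. Med9 stood at 286, 284 and 283 CPM in pachytene to diplotene cells and 216, 206 and 252 CPM in round spermatids. In spermatogonia Med9os was at 43.4, 68.0 and 94.2 CPM, which overlapped the range of non-germ cells (38.9, 78.7 and 76.2), whereas Med9 was at 114, 98.7 and 131 CPM, above its 63.8, 83.2 and 74.3 CPM there.

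Kcnmb4os1 (chr10:116418052-116421237, plus strand) was the most abundant antisense row. It lies inside Kcnmb4, the gene of an accessory subunit of the calcium-activated BK potassium channel, and shares 355 exon bases with it. Kcnmb4os1 stood at 416, 465 and 451 CPM in pachytene to diplotene cells, 298, 345 and 354 in round spermatids and 407, 428 and 437 in elongating spermatids. Kcnmb4 was highest in the same class, at 94.8, 71.5 and 85.9 CPM, but was down to 27.3, 31.3 and 31.1 CPM in round spermatids and 18.5, 20.7 and 22.5 CPM in elongating spermatids. The antisense row thus stayed high where its partner was low, and its level in spermatogonia, 86.8, 97.3 and 102 CPM, was within the 63.8, 136 and 102 CPM of non-germ cells.

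Saxo1os (chr4:86558446-86559804, plus strand) starts 118 bases from Saxo1, which encodes a protein that stabilises microtubules of the sperm tail. Saxo1os stood at 116, 75.8 and 85.1 CPM in round spermatids and 219, 177 and 177 CPM in elongating spermatids. Saxo1 was highest in round spermatids, at 201, 140.3 and 157 CPM, and lower in elongating spermatids, at 60.0, 34.2 and 29.3 CPM. In pachytene to diplotene cells Saxo1os stood at 21.4, 14.3 and 13.4 CPM and Saxo1 at 9.77, 6.18 and 11.6 CPM. In leptotene to zygotene cells their means over the libraries were higher, at 44.5 and 27.4 CPM. The summed markers of elongating spermatids were also higher there, at 69119, 44051 and 41595 CPM. In pachytene to diplotene cells these markers stood at 22927, 18324 and 19269 CPM. How much of the higher Saxo1os and Saxo1 levels came with this spermatid RNA was not tested.

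Among the less abundant pairs, some were chosen after their values were seen because their courses lie at the extremes. Rbm46, whose RNA-binding protein is needed in early meiosis, stood at 174, 177 and 175 CPM in spermatogonia and 161, 189 and 183 CPM in leptotene to zygotene cells, and at 31.2, 22.0 and 23.9 CPM in pachytene to diplotene cells. Rbm46os was highest in those pachytene to diplotene cells, at 74.8, 78.4 and 83.5 CPM, after 11.1, 18.6 and 20.9 CPM in the class before. Rsf1os1 was highest in elongating spermatids, at 97.0, 96.1 and 116 CPM, where its partner Rsf1, the gene of a chromatin remodelling subunit, had 4.02, 4.73 and 2.40 CPM. Fancd2os stood at 106, 133 and 119 CPM in round spermatids, where Fancd2, a gene of DNA crosslink repair, had 2.06, 3.74 and 3.91 CPM.

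In other such pairs both members were highest in the same class. Cep83os and Cep83, the latter encoding a protein of the centriole's distal appendages, were both highest in leptotene to zygotene cells, at 75.5, 91.7 and 91.5 CPM and at 151, 174 and 192 CPM. Wdr83os, which encodes a small membrane protein, and Wdr83 also shared that class, with 104, 107 and 68.5 CPM and 57.9, 72.4 and 59.2 CPM, but 539 exon bases are common to them. Rab26os was found almost only in spermatogonia among the germ classes, at 89.1, 136 and 98.8 CPM, and its partner Rab26, a small GTPase gene, was at 4.57, 15 and 12.1 CPM there. Grip1os1 stood at 82.7, 78.3 and 70.3 CPM and Grip1 at 133, 117 and 123 CPM in round spermatids, and their r was 0.99 although their start sites are 398560 bases apart. Hmgb4os and Hmgb4, the gene of a chromatin protein of late germ cells, start 87 bases apart and had an r of 0.88, but were highest in different classes. Hmgb4os stood at 24, 17.2 and 20.7 CPM in round spermatids and at 14.2, 12 and 11.7 CPM in elongating spermatids. Hmgb4 stood at 2488, 1734 and 1947 CPM in round spermatids and at 3758, 3954 and 3760.5 CPM in elongating spermatids.

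The rows whose stage profiles were most like those of Kcnmb4os1 and Med9os, both among the most abundant antisense rows, were sought among the 11100 rows past the filter, over the same 15 values. For Kcnmb4os1 they were Pgam2 (r = 0.997), 1700029F12Rik (0.993) and 1700017D01Rik (0.993). For Med9os they were Znrd1as (0.994), itself named as an antisense RNA, Ift57 (0.979) and 4930504O13Rik (0.977). None of these 6 rows is the partner of the row it resembles.

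The second question was whether members differed between the control and the knockdown of Gm4665. With 1 library per condition there is no test, and a row was counted when it was at least 2-fold from shCtrl in the same direction with both hairpins, on log2(CPM + 1), among rows with a mean of at least 10 CPM and 30 UMIs. Over all cells 49 antisense rows passed the filter; 0 were higher and 1, Aknaos, was lower. Of all 7068 rows past the filter, 1.23% were counted as higher and 0.495% as lower, so 1 of 49 is a share that so few rows cannot set apart from the background. Of 85 sense rows none was counted in either direction. The median log2 fold of the antisense rows was -0.14 with shRNA1 and -0.12 with shRNA2, that of the sense rows 0.18 and 0.17, and that of all rows 0.23 and 0.25. Antisense rows were below the control with both hairpins in 26 of 49 cases and above it in 16, sense rows in 28 and 53 of 85, and all rows in 1995 and 4308 of 7068. These folds move with the share of each class in a library, and with class shares set to those of the control the medians were -0.10 and 0.00 for antisense rows, 0.03 and 0.03 for sense rows, and 0.08 and 0.06 for all rows. With those shares 22 of 49 antisense rows were below the control with both hairpins and 19 above it. With TMM factors the medians were -0.41 and -0.46 for antisense rows and -0.09 and -0.17 for sense rows, so that the sign of the sense median depends on the scaling.

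**Figure D4:**
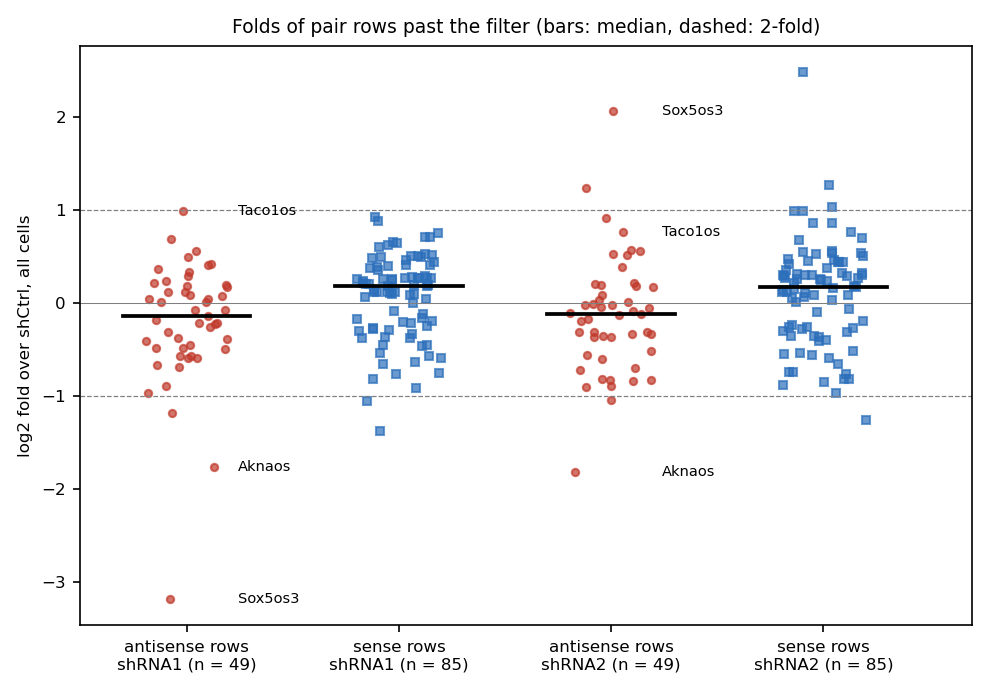
log2 fold over shCtrl in all cells (vertical axis) of antisense (red) and sense (blue) rows past the filter, for shRNA1 and shRNA2; 1 point per row, black bars are medians and dashed lines mark 2-fold. Aknaos lies below the lower line with both hairpins, and Sox5os3 is low with shRNA1 and high with shRNA2.

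Within classes, counts of antisense rows stayed small. In leptotene to zygotene cells Itpr3os and Slfn5os were lower, 2 of 43, against 0.725% of all rows lower and 0.251% higher. Both rows were highest in elongating spermatids. The summed markers of elongating spermatids were also uneven in the leptotene to zygotene cells, at 69119, 44051 and 41595 CPM. How much of the lower levels came with this spermatid RNA was not tested. In pachytene to diplotene cells 0 of 35 were counted, against 0.162% in either direction. In round spermatids Aknaos was lower, 1 of 54, against 0.273% lower and 0.379% higher. In elongating spermatids Aknaos was lower and Taco1os higher, 1 each of 47, against 0.297% and 2.08%. No sense row was counted in any of these 4 classes, of 83, 82, 86 and 60 that passed. Spermatogonia were not compared, since shCtrl held 26 of them.

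Aknaos (chr4:63381358-63394018, plus strand, 3 exons) lies inside Akna, which encodes an AT-hook protein that organises microtubules at the centrosome, and shares 6 exon bases with it. Over all cells Aknaos stood at 25.6, 6.86 and 6.54 CPM (1036, 263 and 292 UMIs), so that shCtrl was above both knockdown libraries. The ratio to shCtrl was 0.268 (interval 0.233 to 0.307) with shRNA1 and 0.255 (0.223 to 0.291) with shRNA2. Akna stood at 17.1, 15.6 and 14.05 CPM, with ratios of 0.915 (0.819 to 1.02) and 0.822 (0.737 to 0.918). The antisense share of the pair's UMIs was 60.0%, 30.5% and 31.8%.

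The lower level of Aknaos was seen in each class with enough cells. It was 22.7, 6.99 and 7.23 CPM in round spermatids and 35.7, 12.2 and 13.8 CPM in elongating spermatids. It was 11.7, 1.69 and 2.11 CPM in pachytene to diplotene cells and 17.3, 2.56 and 4.04 CPM in leptotene to zygotene cells, where its mean missed the filter. The summed markers of elongating spermatids were also highest in shCtrl in both of these classes and in round spermatids. In these 4 classes the interval of the control did not overlap those of the knockdown libraries. Akna in the same classes stood at 26.6, 22.8 and 20.4 CPM in round spermatids and at 16.1, 20.3 and 16.1 CPM in elongating spermatids. With the clusters inside the spermatid classes weighted as in the control, a step added after seeing the data, Aknaos was at 22.7, 9.88 and 9.20 CPM in round and 35.7, 13.1 and 12.9 CPM in elongating spermatids. Non-germ cells held 2.78, 0.895 and 0.986 CPM.

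Itpr3os was lower with both hairpins over all cells, at 158, 85.0 and 76.0 CPM, but its log2 folds of -0.89 and -1.05 missed the 2-fold rule with shRNA1. In leptotene to zygotene cells, whose spermatid marker RNA was also highest in shCtrl, it stood at 78.7, 30.8 and 34.3 CPM. The ratios there were 0.391 (interval 0.280 to 0.536) and 0.436 (0.359 to 0.530). In elongating spermatids, its main class, the ratios were 0.686 (0.653 to 0.721) and 0.728 (0.691 to 0.768). Itpr3os was among the 10 leading genes of 1 cluster of elongating spermatids that held 189, 66 and 4 cells, and within that cluster it stood at 413, 351 and 405 CPM. With classes weighted as in the control, its log2 folds over all cells were -0.60 and -0.52. Itpr3 was at 3.76, 2.50 and 2.71 CPM and missed the filter over all cells.

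Saxo1os and Saxo1 were both lower over all cells, at 146, 89.9 and 81.4 CPM and at 89.6, 46.8 and 50.2 CPM, without reaching 2-fold with both hairpins. With classes weighted as in the control, the log2 folds were -0.40 and -0.36 for Saxo1os and -0.61 and -0.54 for Saxo1. Of the other 10 most abundant antisense rows, Ccpg1os was at 177, 228 and 230.4 CPM, with ratios of 1.28 (interval 1.24 to 1.32) and 1.3 (1.26 to 1.34). Ube4bos3 was at 152, 114 and 92.1 CPM and Tmem132cos at 148, 109 and 91.3 CPM, while Kcnmb4os1 (357, 385 and 353 CPM) and Lyzl4os (108, 122 and 109 CPM) had nearly the same level in all 3 libraries. With classes weighted as in the control, the log2 folds were 0.20 and 0.22 for Ccpg1os. They were -0.12 and -0.29 for Ube4bos3 and -0.16 and -0.31 for Tmem132cos. With TMM factors those of Ccpg1os were 0.08 and 0.03.

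**Figure D5:**
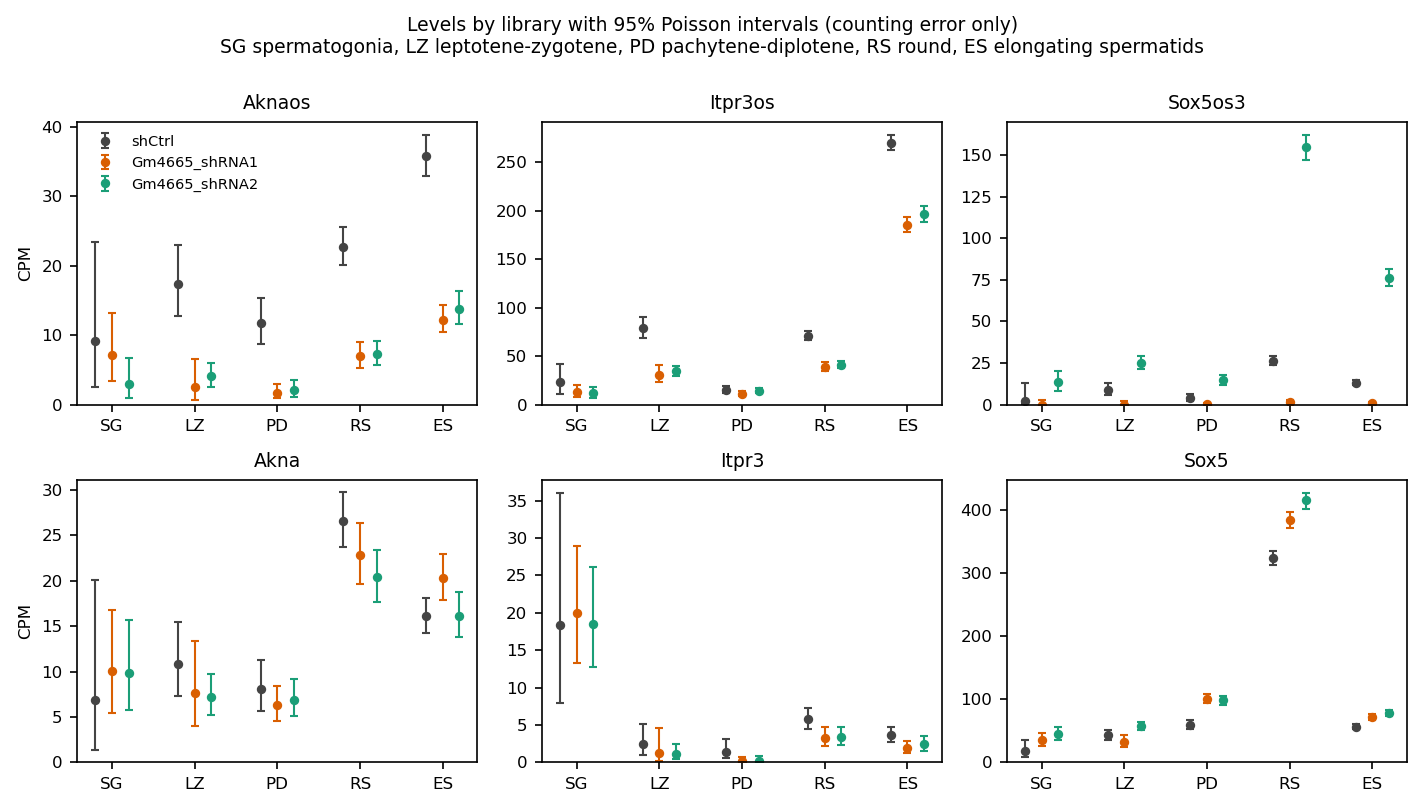
CPM (vertical axes, differing between panels) of Aknaos, Itpr3os, Sox5os3 and their sense partners in 5 germ cell classes and 3 libraries, with exact Poisson 95% intervals. Aknaos was lower in both knockdown libraries from leptotene to zygotene cells on, Sox5os3 was near 0 in shRNA1 and highest in shRNA2, and Akna and Sox5 show no such gap.

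Slfn5os overlaps the 5′ end of Slfn5, a gene of the Schlafen family, by 559 exon bases. It was chosen because it was counted in leptotene to zygotene cells, whose spermatid marker RNA was also highest in shCtrl. There it stood at 20.8, 5.13 and 8.58 CPM from 58, 8 and 51 UMIs. In elongating spermatids, where it was highest, it stood at 65.8, 45.1 and 55.1 CPM, and Slfn5 was at 3.35, 2.21 and 1.73 CPM there. Taco1os overlaps the 5′ end of Taco1, which encodes an activator of mitochondrial translation. It stood at 8.16, 20.9 and 17.4 CPM in elongating spermatids, with ratios of 2.56 (interval 2.08 to 3.18) and 2.13 (1.69 to 2.68). It missed 2-fold with shRNA2 under some other scalings. Its log2 folds were 1.16 and 0.84 with TMM factors and 1.12 and 0.82 with median-of-ratios factors. They were 1.22 and 0.98 with the clusters of this class weighted as in the control. Without the 20 most abundant genes they were 1.28 and 1.05, past 2-fold with both hairpins. Clusters were unevenly spread in this class, 1 of them holding 30, 189 and 246 cells and another 189, 66 and 4. In pachytene to diplotene cells Taco1os stood at 21.2, 32.6 and 28.0 CPM. Taco1 was at or under 4.57 CPM in every germ class and library.

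Sox5os3 (chr6:144672868-144693834, plus strand, 4 exons) differed in opposite directions with the hairpins. It lies inside Sox5, the gene of a transcription factor abundant in spermatids, without shared exon bases, and was named after its values were seen. Over all cells it had 594, 28 and 2871 UMIs, or 14.7, 0.730 and 64.3 CPM. The ratio to shCtrl was 0.0497 (interval 0.0327 to 0.0726) with shRNA1 and 4.37 (4.003 to 4.79) with shRNA2. In round spermatids, its main class, it stood at 26.3, 1.57 and 155 CPM, and after thinning 14.99%, 1.47% and 61.3% of these cells held a UMI of it. Non-germ cells held one in 4.76%, 0% and 13.9%. Each of the 5 clusters of round spermatids showed the order shRNA1, shCtrl, shRNA2, for instance 2.29, 41.5 and 313 CPM in the cluster of highest level. Sox5 stood at 141, 168 and 173 CPM over all cells and at 325, 385 and 416 CPM in round spermatids. Over all cells 5 of 7068 rows were at least 2-fold from shCtrl in opposite directions with the hairpins.

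The sense row farthest from the control was Rbm3, an RNA-binding protein gene induced by cold, at 23.9, 44.9 and 138 CPM over all cells. Its level in non-germ cells was 1146, 986 and 1670.1 CPM, and those cells were 1.48%, 5.54% and 9.77% of the libraries. In round spermatids Rbm3 was at 17.3, 11.8 and 22.1 CPM.

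Chd3os and Chd3 were above the control over all cells, at 7.67, 11.8 and 19.3 CPM and at 10.5, 18.4 and 22.6 CPM, without reaching 2-fold with both hairpins. Spermatogonia, where both were highest on average over the libraries, made up 1.83%, 5.20% and 5.93% of the libraries. With class shares set to those of the control, the log2 folds were 0.37 and 0.26 for Chd3os and 0.58 and 0.36 for Chd3. In spermatogonia, with 26 control cells, Chd3os stood at 159.9, 145 and 118 CPM and Chd3 at 114, 104 and 65.3 CPM, and neither was above the control. In leptotene to zygotene cells both were above the control, with ratios of 1.54 (interval 1.23 to 1.91) and 1.48 (1.25 to 1.75) for Chd3os and 1.36 (1.09 to 1.69) and 1.36 (1.15 to 1.61) for Chd3. Chd3 was also above the control in pachytene to diplotene cells, with ratios of 2.18 (1.42 to 3.47) and 1.78 (1.13 to 2.87). Its ratios were 2.46 (1.73 to 3.53) and 1.49 (1.02 to 2.18) in round spermatids and 2.11 (1.45 to 3.09) and 1.91 (1.28 to 2.87) in elongating spermatids. In those 3 classes the means of Chd3os were under 2 CPM.

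Other natural antisense or overlapping transcripts, which have no stem in the table or another kind of name, served as a comparison list of 11 rows. Over all cells Hoxd3os1, Zfos1, Tnfsf13os and Kcnq1ot1, 4 of the 11, passed the filter, and 0 were counted as higher or lower with both hairpins. Their median log2 folds were 0.28 with shRNA1 and 0.16 with shRNA2.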

How the data were processed

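The authors deposited values on a natural log (ln) scale, in which 1 was added to each gene's share of a cell's UMIs after scaling to 10000. Per the submitters' processing notes, Cell Ranger 1.3.1, mm10 and Seurat 2.0.0 were used; the sources used here do not name the annotation, the strand setting or the cell filter. Whole UMIs were recovered from the steps between values: 100.0% of 20140203 non-zero values were whole within 0.01.

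All cells were kept and no doublet caller was run. Cells were clustered with scanpy 1.11.5 and leidenalg 0.10.2 (2000 variable genes, 30 principal components, 15 neighbours, resolution 0.8), which gave 21 clusters. They were named from 13 marker lists, each needing 3 markers raised 1.5-fold. Rules for ambiguous clusters were made after seeing the data: 2 clusters stayed unnamed and 1 mixed. UMIs were summed by class and library and scaled to CPM. Folds used a pseudocount of 1 CPM, and classes were compared with at least 50 cells in each library. Steps were tested on simulated data. Intervals are exact (Poisson, binomial). Cells were thinned to 10000 UMIs for shares, leaving out 70, 530 and 332 cells. Ratio intervals compare 2 libraries, not conditions.

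Gene positions came from GENCODE vM21 and sequences from RefSeq GRCm38.p6, in which 145 of the 235 antisense rows had a promoter entry. Members and lists were chosen with earlier results of these data known. The rule for pairs named in full took the 12 antisense rows of highest class level, Aknaos, Itpr3os and any pair counted over all cells. The 3 rows of most similar stage profile were sought for the first 3 antisense rows; those of Ccpg1os are not reported here. Python 3.11.15, numpy 2.4.6, pandas 2.3.3 and scipy 1.17.1 were used.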

Additional observations from a re-analysis of the deposited data

Results flagged for a closer look

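Sox5os3 was lower than the control with shRNA1 and higher with shRNA2, and this difference between the hairpins was not tested, since each had 1 library. Its log2 folds were -3.18 and 2.06 over all cells, -3.41 and 2.51 in round spermatids, and -3.0 and 2.45 in elongating and condensing spermatids. In leptotene to zygotene spermatocytes they were -3.27 and 1.44. There shRNA1 had no Sox5os3 UMI, so that value depends on the pseudocount, and a floor of 3 UMIs in that library (1.92 CPM) puts it at least 4.49-fold lower than the 8.63 CPM of the control.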

How the results depend on the processing

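No paired analysis was possible because each group held 1 library. Over all cells, the count of antisense rows lower with both hairpins was 1 (Aknaos) in the main setting. It was 3 of 49 with TMM factors and 3 of 49 with median-of-ratios factors (Slfn5os and Itpr3os added). It was 2 of 108 with a filter of 1 CPM and 10 UMIs (Cdrt4os2 added), and 6 of 49 at a fold of 1.5. The count of higher rows, 0, became 1 of 108 with the lower filter (Rab26os) and 1 of 49 at a fold of 1.5 (Taco1os). For sense rows the lower count, 0, became 5 of 85 with TMM and 5 of 85 with median-of-ratios factors (Anxa11, Banf2, Saxo1, Slc36a3 and Zfp652). It became 1 of 91 without the 20 most abundant genes and 1 of 85 with a pseudocount of 0.1 CPM (both Slc36a3). At a fold of 1.5 it was 7 of 85. The higher count, 0, became 2 of 160 with the lower filter and 4 of 85 at a fold of 1.5. The TMM and median-of-ratios factors move the median log2 fold of all rows down. It goes from 0.23 and 0.25 to -0.04 and -0.09 (TMM) and to -0.05 and -0.14 (median of ratios). The share of all rows counted under these other settings is not given here, so their counts have no background to be read against. Aknaos was counted in each of the 9 alternatives run on it over all cells, but several of them could not have removed it. These were the fold of 1.5, the lower filter and the limit to pairs within 10 kb. TMM and median-of-ratios factors moved its folds further down. With classes weighted to the control mix its log2 folds were -1.55 and -1.43. With the lower filter 40 of 122 pairs (32.8%) shared their highest class, against 16 of 51 (31.4%), and in the control library alone 18 of 46 (39.1%) did. Under 4 other clusterings and with unnamed clusters given to their nearest class, an alternative added after seeing the data, the highest class was the same for 62 of 66 to 67 of 68 antisense rows.

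The main limits are 1 library per condition, unknown strand of counting, free RNA that was not measured, and few control spermatogonia. Antisense rows under the filter, all but 68 of 235, could not be placed by stage at this depth.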
